A study of Homo sapiens with 18 samples.

Results

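A set of 10 genes for protein folding in the endoplasmic reticulum was followed through 3 knockdowns in 786-O cells. They are the chaperones HSPA5, HSP90B1, CALR and HYOU1, the disulfide isomerase PDIA4, the co-chaperones DNAJB9 and SDF2L1, the degradation factors HERPUD1 and SEL1L, and the transcription factor XBP1. The genes were taken by symbol, and 10 of 10 were found in each of the 3 expression tables, among 58735 rows in the tables for RBCK1 and ANKRD35 and 29928 rows in the table for MITD1. All 10 passed the filter on low values in each table, in control and knockdown libraries alike.

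The endoplasmic reticulum folds secreted and membrane proteins with the help of luminal chaperones, and misfolded chains are returned to the cytosol and degraded. When unfolded proteins build up, the sensors IRE1 (gene ERN1), ATF6 and PERK (gene EIF2AK3) are released from HSPA5, also called BiP or GRP78. IRE1 splices XBP1 mRNA into the form that encodes an active transcription factor, and spliced XBP1 and cleaved ATF6 raise chaperone and degradation genes, while PERK acts through ATF4. Gene-level values as used here do not separate spliced from unspliced XBP1 mRNA.

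RNA-seq was made from 18 samples of 786-O, an established clear cell renal carcinoma line that lacks functional VHL, grown in RPMI-1640 medium with serum. They form 6 groups of 3: the knockdown groups shRBCK1, siANKRD35 and siMITD1, and their respective controls shcontrol, sicontrol_for_siANKRD35 and sicontrol_for_siMITD1. No group carries a drug treatment in the labels, and the series title places the targets in the response of renal carcinoma to sunitinib. The columns of the ANKRD35 knockdown are headed ShRNA whereas the sample titles read si, so the reagent is uncertain and the title's names are used. The labels give neither the time after knockdown, nor the number of hairpins, siRNAs or clones, nor whether libraries of a group came from separate cultures. The p-values are therefore set by the spread among libraries of a group, and that spread may be technical.

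Expression was given as FPKM, which counts fragments per kilobase of a gene relative to a scaling size of the library, a scale on which levels of different genes can be compared. The scaling size inferred from the values was not the read total. In replicate 1 it was 17052778 for 17418255 recovered reads in shcontrol and 19173760 for 18648246 in shRBCK1. For ANKRD35 it was 17981403 for 17589053 in control replicate 1 and 17202731 for 17843846 in knockdown replicate 1. Each table was normalized on its own, so tests were made within a table, and levels from different tables are set side by side without a test. Recovered reads per library ran from 16346478 to 18648246 for RBCK1, 17502646 to 19034974 for ANKRD35 and, over the genes whose reads could be recovered, 12703947 to 13888443 for MITD1. The targets followed their labels: RBCK1 went from 480.3 ± 15.97 to 31.9 ± 1.04 FPKM (SD, n = 3) in its table, ANKRD35 from 727 ± 35.4 to 0.0111 ± 0.0191 FPKM and MITD1 from 7.47 ± 0.336 to 2.71 ± 0.303 FPKM. Controls of the ANKRD35 and MITD1 tables held RBCK1 at 70.8 and 65.5 FPKM, and ANKRD35 had 0 reads in the shcontrol group and 1 read in the sicontrol_for_siMITD1 group. The labels do not say whether the cells of the RBCK1 and ANKRD35 tables had been made to overexpress the target, which was not tested. Each change with RBCK1 or ANKRD35 knockdown is thus relative to a control in which the target stood far above its level in the other tables. In the MITD1 table RBCK1 itself measured 65.5 ± 0.960 FPKM in control and 94.5 ± 2.43 FPKM in knockdown libraries. Of 8 renal carcinoma line markers 7 passed the filter in each table, CA9 being the exception, and summed per library to 841 to 865 FPKM in control and 667 to 693 in knockdown for RBCK1. Their sums were 1049.5 to 1088 and 1280.3 to 1583 FPKM for ANKRD35, and 839 to 864 and 887 to 907 FPKM for MITD1, and their part in the results was not tested. Markers of endothelium summed to at most 0.550, of blood cells to at most 0.400 and of fibroblasts to at most 4.65 FPKM in any library. Libraries of 1 group correlated across genes at 0.992 or more, except siANKRD35, where the lowest pair reached 0.970. Leaving out siANKRD35 replicate 2 raised the number of genes called in that comparison from 2305 higher and 2007 lower to 3485 and 3033, so results are also given without it.

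Elements of the unfolded protein response were searched in RefSeq promoter windows of assembly GRCh38.p14, from 250 bases before to 50 bases after a start site, and all 10 genes had a window. The endoplasmic reticulum stress element (ERSE) was searched as CCAAT, then 9 bases of any kind, then CCACG. ERSE-II was searched as ATTGG, then 1 base of any kind, then CCACG. ATF6 and XBP1 are known to act through the CCACG part and the factor NF-Y through CCAAT or its reverse ATTGG. The matches are shown because these letters are rare among all windows and 7 of the 10 genes carry them. The 10 genes were picked as members of this pathway, so that contrast is a description and was not tested. Each line gives a match with 15 bases on both sides, 5′ to 3′ on the strand that holds the element, with its fixed letters in capitals.
HSPA5 ERSE: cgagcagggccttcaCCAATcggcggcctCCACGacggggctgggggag
HSP90B1 upstream ERSE: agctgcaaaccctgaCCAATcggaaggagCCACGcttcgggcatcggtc
HSP90B1 downstream ERSE: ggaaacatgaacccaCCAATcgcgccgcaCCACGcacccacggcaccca
CALR ERSE: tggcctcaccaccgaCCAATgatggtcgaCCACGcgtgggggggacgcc
XBP1 ERSE: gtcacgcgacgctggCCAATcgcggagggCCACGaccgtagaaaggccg
HYOU1 downstream ERSE-II: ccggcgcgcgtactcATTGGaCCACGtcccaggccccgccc
HYOU1 upstream ERSE-II: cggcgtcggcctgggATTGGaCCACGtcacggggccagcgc
SDF2L1 ERSE-II: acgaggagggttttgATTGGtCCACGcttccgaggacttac
HERPUD1 ERSE-II: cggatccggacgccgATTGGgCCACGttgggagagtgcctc

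The printed HSPA5 sequence lies at chr9:125241376-125241424 on the minus strand, with the element at −66 to −48 from the start site. The upstream HSP90B1 sequence lies at chr12:103930201-103930249 on the plus strand (element at −194 to −176) and the downstream one at chr12:103930306-103930354 on the minus strand (−89 to −71). Both fall inside the longer HSP90B1 gene bounds of the expression tables, which begin at 103930107. The CALR sequence lies at chr19:12938369-12938417 on the minus strand (−225 to −207) and the XBP1 sequence at chr22:28800588-28800636 on the minus strand (−52 to −34). The HYOU1 sequences lie at chr11:119057259-119057299 (−79 to −69) and chr11:119057365-119057405 (−185 to −175), both on the plus strand. The SDF2L1 sequence lies at chr22:21642099-21642139 on the minus strand (−188 to −178), and the HERPUD1 sequence at chr16:56932010-56932050 on the plus strand (−117 to −107). The element lies on the gene's own strand in HSPA5, XBP1, HERPUD1 and the upstream HSP90B1 match, and on the opposite strand in the others. ERSE was found in 27 of 35116 windows of 27305 genes (0.0769%), searching both strands, and ERSE-II in 19 windows (0.0541%). The XBP1-binding core TGACGTGG was found in 256 windows (0.729%) and in 1 of the 10 genes, HYOU1, at −188 to −181, where it overlaps the upstream ERSE-II. The short motif CCACG, which is contained in all 3 longer motifs, was found in 38.1% of windows and in 10 of the 10 genes. PDIA4, DNAJB9 and SEL1L had neither ERSE nor ERSE-II in these windows. A match describes letters only, and no binding was measured.

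**Figure D1:**
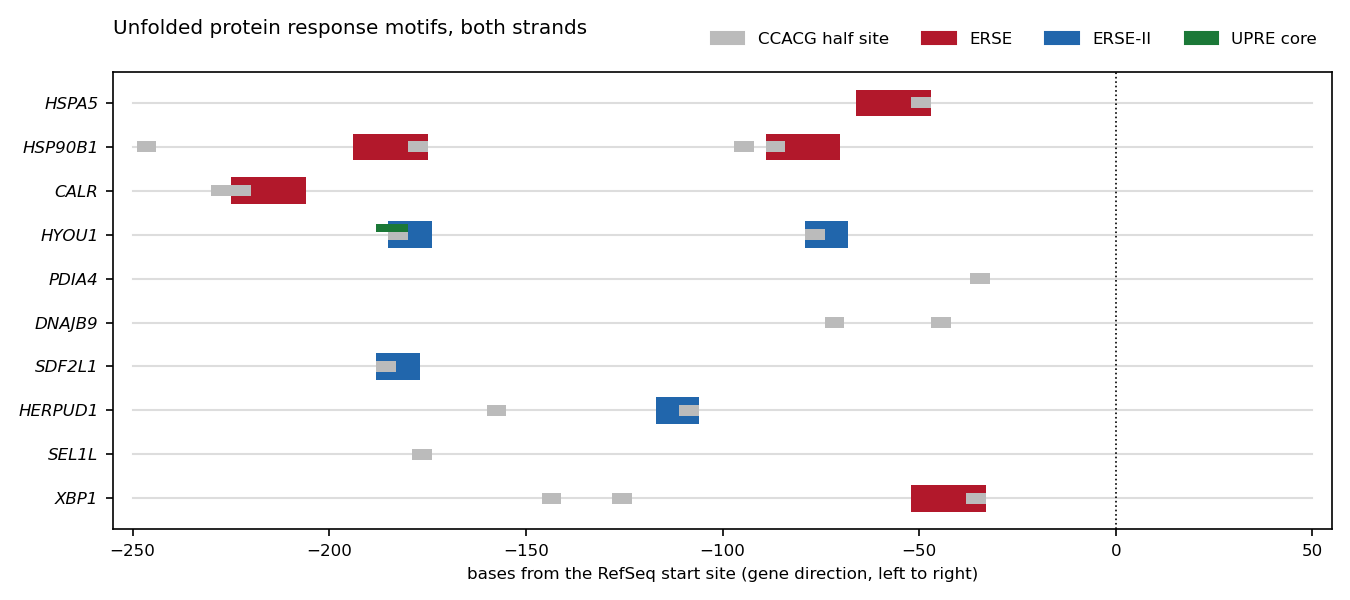
Positions of the searched motifs in the RefSeq promoter windows of the 10 genes, 1 row per gene, with bases from the start site on the horizontal axis; boxes mark motif matches on either strand. ERSE boxes stand in HSPA5, HSP90B1, CALR and XBP1, ERSE-II boxes in HYOU1, SDF2L1 and HERPUD1, and PDIA4, DNAJB9 and SEL1L hold only the short motif CCACG.

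The genes mostly fell with RBCK1 and ANKRD35 knockdown and mostly rose with MITD1 knockdown. With limma on log2(FPKM + 1) and a Benjamini-Hochberg adjusted p under 0.05 over all genes tested, 7 of the 10 fell and 1 rose in shRBCK1. Of all 12227 genes tested there, 24.9% fell and 24.1% rose. In siANKRD35 7 of the 10 fell and 0 rose, against 16.9% and 19.4% of 11890 genes. In siMITD1 6 rose and 2 fell, against 30% and 35.6% of 10415 genes. The median log2 change of the 10 genes was −0.37, −0.46 and 0.16 in the 3 comparisons, and that of all genes tested was 0.01, 0.03 and −0.03. HSPA5, HYOU1, HERPUD1 and XBP1 fell in both of the first comparisons and rose in the third, and each of the 10 genes was called in at least 1 comparison. Control and knockdown libraries did not overlap for 9 of the 10 genes in each comparison, against 59%, 52.2% and 70.4% of all genes tested. These background shares are high, so a call alone says little, and the sizes below carry the description. With voom on recovered reads the split of all calls moved from 2951 higher and 3049 lower to 4191 and 2673 for RBCK1, and from 2305 and 2007 to 1747 and 2724 for ANKRD35. Voom took the read totals as library sizes, not the scaling sizes of the FPKM values. The part of that choice in these moves was not tested.

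**Figure D2:**
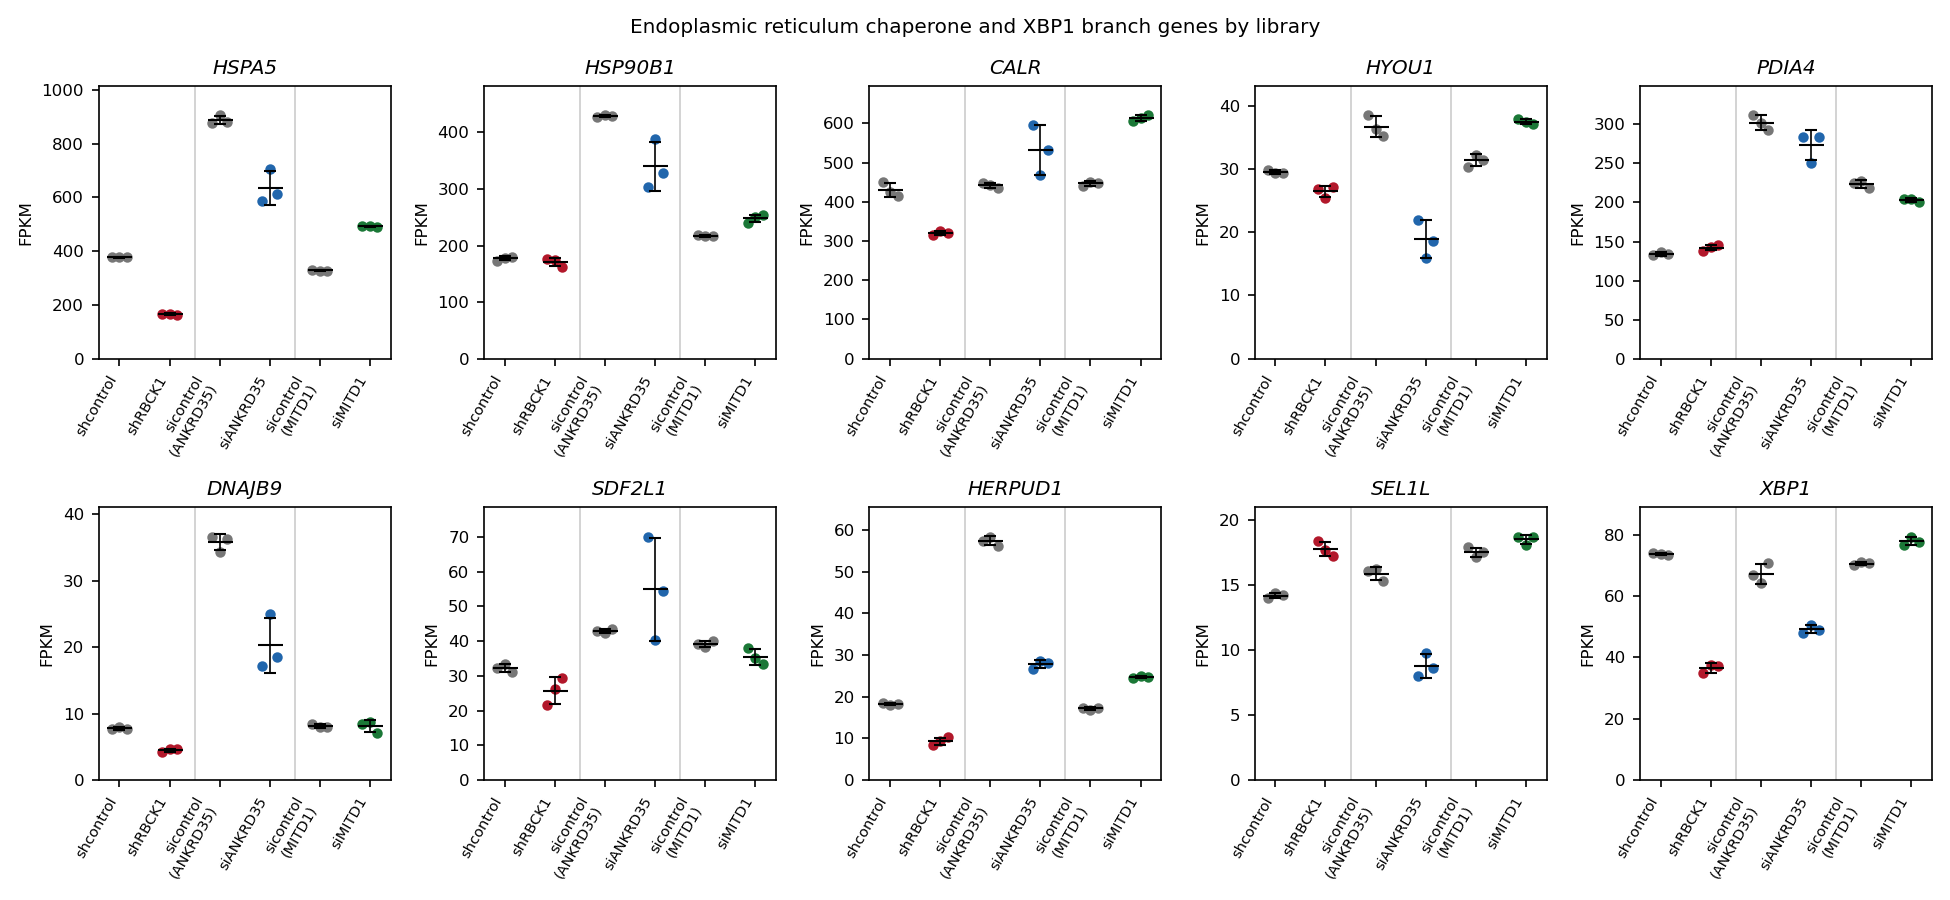
FPKM of each gene in the 18 libraries, 1 panel per gene with its own axis from 0; points are libraries, bars the mean ± SD of 3 libraries, and vertical lines separate the 3 tables. HSPA5 sits at 376 to 379 FPKM in shcontrol and 161 to 168 in shRBCK1, and its siMITD1 libraries lie above their controls.

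**Figure D3:**
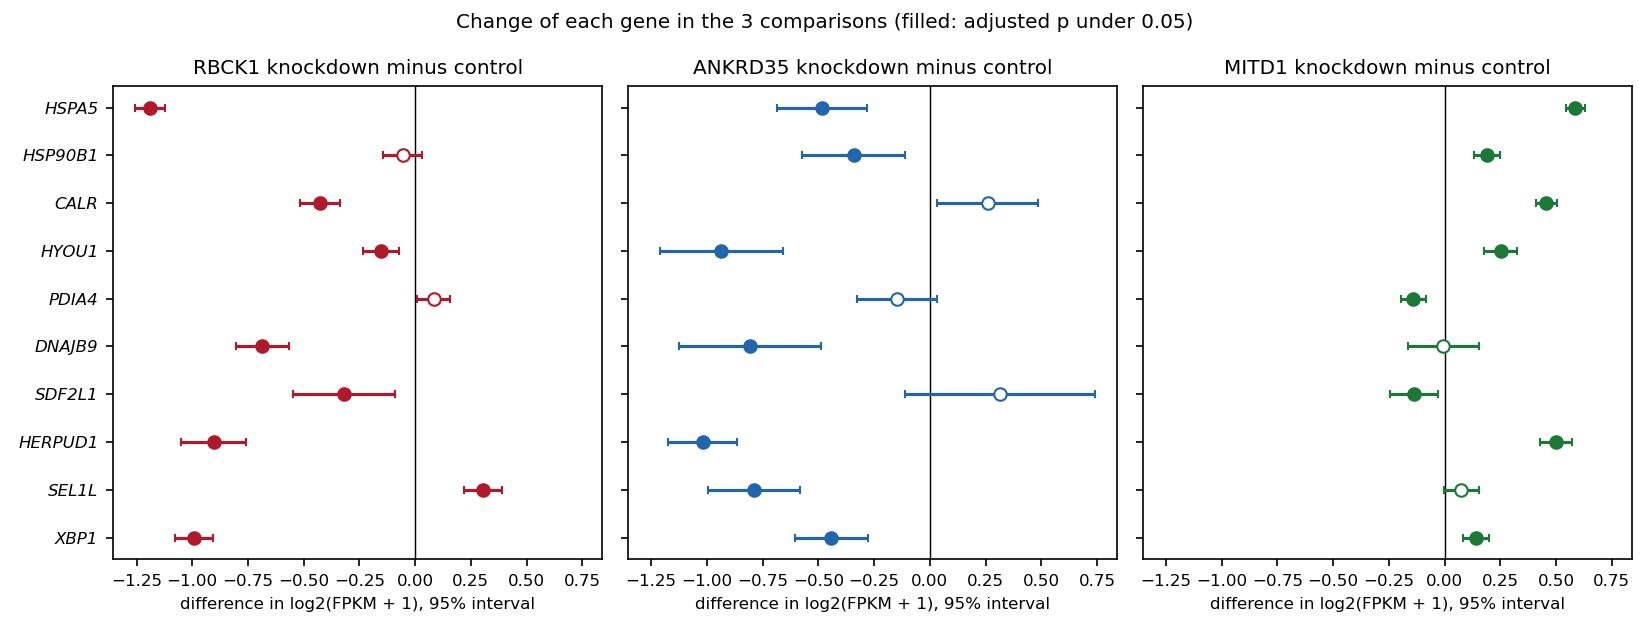
Change of each gene, knockdown minus control, in log2(FPKM + 1) with its 95% interval from limma, 1 panel per comparison; filled points have an adjusted p under 0.05. HSPA5, HERPUD1 and XBP1 lie left of 0 in the first 2 panels and right of 0 in the third, and PDIA4 stays within 0.15 of 0 in each.

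HSPA5, the HSP70-type chaperone of the lumen and the regulator of the 3 stress sensors, showed the largest fall with RBCK1 knockdown among the 10 genes. The shcontrol libraries measured 379, 377 and 376 FPKM and the shRBCK1 libraries 166, 168 and 161 FPKM. The groups were far apart compared with their spread, a log2 change of −1.19 (SE 0.029, limma adjusted p = 8.88e-08), so HSPA5 fell by 56.3%. This was the 205th largest change of 12227 genes tested, and HSPA5 moved from rank 72 to rank 163 among expressed genes. For ANKRD35 the control libraries measured 876, 905 and 879.8 FPKM and the knockdown libraries 587, 706 and 613 FPKM. Every knockdown library lay below every control, with a log2 change of −0.48 (SE 0.085, limma adjusted p = 0.00617) and replicate 2 nearest to the controls. For MITD1 the control libraries measured 329.7, 326 and 327 FPKM and the knockdown libraries 495, 492 and 491 FPKM. Here all 3 knockdown libraries were higher, by 0.59 on the log2 scale (SE 0.019, limma adjusted p = 9.19e-08), or 50.3%. HSPA5 reads behind these groups numbered 34872 to 192628 per group. In bulk RNA a lower level per cell cannot be told apart from fewer cells that express the gene.

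HSP90B1, the HSP90-type chaperone of the lumen also called GRP94, moved less than HSPA5 in each comparison. In the RBCK1 table the controls measured 173, 179 and 179.9 FPKM and the knockdown libraries 175, 174 and 163 FPKM. These groups overlapped, and the change of −0.06 did not pass (95% interval −0.15 to 0.03, limma adjusted p = 0.255). Controls of the ANKRD35 comparison measured 427, 430.4 and 429 FPKM and siANKRD35 libraries 304, 388 and 329 FPKM. All knockdown libraries were lower, with a change of −0.34 (SE 0.098, limma adjusted p = 0.0329). The spread of the knockdown libraries was wide, with SDs of 1.72 FPKM in control and 43.1 FPKM in knockdown, and the call was lost when any 1 control library or siANKRD35 replicate 1 or 3 was left out, and with no filter (limma adjusted p = 0.0583 to 0.109). Controls of the MITD1 comparison measured 219, 216 and 217 FPKM and siMITD1 libraries 241, 250.05 and 254 FPKM. The knockdown libraries were all higher, by 0.19 (SE 0.026, limma adjusted p = 0.000232).

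CALR encodes calreticulin, the lectin chaperone that holds newly made glycoproteins and stores calcium. It measured 451, 426 and 415 FPKM in shcontrol and 316, 324 and 321 FPKM in shRBCK1. All knockdown libraries were lower, with a change of −0.43 (SE 0.038, limma adjusted p = 0.00011), or −0.24 under quantile normalization (limma adjusted p = 0.000192). For ANKRD35 it measured 448, 443 and 435 FPKM in controls and 596, 469 and 531 FPKM in knockdown libraries. All 3 were above the controls, unlike HSPA5 and HSP90B1, yet the change of 0.26 did not pass (SE 0.096, limma adjusted p = 0.0724). Without siANKRD35 replicate 2 it was 0.35 with limma adjusted p = 0.00384. The siMITD1 libraries measured 607, 613 and 621 FPKM and their controls 441, 452 and 449 FPKM. This was a rise of 0.46 (SE 0.021, limma adjusted p = 4.79e-07), or 37.2%.

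HYOU1, the large HSP70-related protein that exchanges nucleotide on HSPA5, fell slightly with RBCK1 knockdown and strongly with ANKRD35 knockdown. It measured 29.9, 29.4 and 29.3 FPKM in shcontrol and 26.8, 25.5 and 27.1 FPKM in shRBCK1. The groups did not overlap and the change was −0.15 (SE 0.035, limma adjusted p = 0.00897), which was lost under quantile normalization (limma adjusted p = 0.131). The siANKRD35 libraries measured 21.9, 15.9 and 18.6 FPKM and their controls 38.5, 36.3 and 35.2 FPKM. All knockdown libraries were far below, with a change of −0.94 (SE 0.116, limma adjusted p = 0.00211), and HYOU1 fell by 48.6%. With MITD1 knockdown the libraries measured 37.9, 37.5 and 37.1 FPKM, and their controls had 30.3, 32.3 and 31.4 FPKM. That was a rise of 0.25 (SE 0.032, limma adjusted p = 0.000164). The MITD1 table lists no gene lengths, and reads of HYOU1 could not be recovered there.

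PDIA4, a disulfide isomerase also called ERp72, which forms and rearranges disulfide bonds and joins HSPA5 in chaperone complexes, did not follow HSPA5. It measured 132, 137 and 134 FPKM in shcontrol and 138, 143 and 145 FPKM in shRBCK1. The knockdown libraries were slightly higher without passing the test, at 0.08 (95% interval 0.009 to 0.16, limma adjusted p = 0.0631). With ANKRD35 knockdown the libraries measured 284, 251 and 284 FPKM, and their controls had 312, 301.4 and 293 FPKM, at −0.15 (95% interval −0.33 to 0.03, limma adjusted p = 0.173). The groups did not overlap, and the change passed after correction of each library for gene length and GC content, at −0.27 (limma adjusted p = 0.00574). Controls of the MITD1 comparison measured 225, 227 and 219 FPKM and siMITD1 libraries 204, 205 and 200.1 FPKM. PDIA4 was here lower in all 3 knockdown libraries, with a change of −0.14 (SE 0.024, limma adjusted p = 0.000961), in the comparison where 6 of the 10 genes rose. It was −0.08 with length correction and −0.06 with length and GC correction (limma adjusted p = 0.0153 and 0.036), still called.

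DNAJB9, also called ERdj4, is a J-domain partner of HSPA5 and a known target of spliced XBP1. It measured 7.67, 7.99 and 7.71 FPKM in shcontrol and 4.15, 4.63 and 4.63 FPKM in shRBCK1. All shRBCK1 libraries were lower, with a change of −0.68 (SE 0.051, limma adjusted p = 4.2e-05); the shcontrol group held 1105 reads of DNAJB9 and the shRBCK1 group 685. For ANKRD35 it measured 36.6, 34.4 and 36.3 FPKM in controls and 17.2, 25.01 and 18.6 FPKM in knockdown libraries. All knockdown libraries were lower, with a change of −0.81 (SE 0.135, limma adjusted p = 0.00522), and replicate 2 again stood nearest to the controls. In the MITD1 table the controls measured 8.43, 8.03 and 7.96 FPKM and the knockdown libraries 8.46, 8.78 and 7.16 FPKM. These groups overlapped, with a change of −0.01 (95% interval −0.16 to 0.15, limma adjusted p = 0.95). The interval leaves out changes as large as those of HSPA5 or HERPUD1 in the same libraries.

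SDF2L1, a small luminal protein that works with J-domain partners of HSPA5, was the least steady of the 10 genes. It measured 32.1, 33.4 and 31.0 FPKM in shcontrol and 21.6, 26.3 and 29.4 FPKM in shRBCK1. The knockdown libraries were spread widely below the controls, with a change of −0.32 (SE 0.098, limma adjusted p = 0.0296). That call was lost without shcontrol replicate 1 or 2, without shRBCK1 replicate 2, with no filter and under quantile normalization (limma adjusted p = 0.054 to 0.114). Controls of the ANKRD35 comparison measured 42.8, 42.4 and 43.5 FPKM and siANKRD35 libraries 70.0, 40.4 and 54.3 FPKM. Replicate 2 lay below every control and the other siANKRD35 libraries above, and the change of 0.31 did not pass (SE 0.180, limma adjusted p = 0.211). Without replicate 2 it was 0.51 (limma adjusted p = 0.00613). The siMITD1 libraries measured 37.9, 35.3 and 33.4 FPKM and their controls 39.1, 38.2 and 40.1 FPKM, a change of −0.14 (SE 0.047, limma adjusted p = 0.0279). The nearest libraries differed by little, and the call was lost in 10 of the alternative analyses. SDF2L1 is the shortest of the 10 genes in the tables, at 1099 bases, and also has the highest GC content, 65.5%.

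HERPUD1, a membrane protein that brings together the degradation machinery, had the direction of HSPA5 in each comparison. It measured 18.5, 18.1 and 18.2 FPKM in shcontrol and 8.42, 9.29 and 10.2 FPKM in shRBCK1. All shRBCK1 libraries were lower, with a change of −0.90 (SE 0.063, limma adjusted p = 2.93e-05), and HERPUD1 fell by 49.0%. The siANKRD35 libraries measured 26.8, 28.6 and 28.0 FPKM and their controls 57.5, 58.4 and 56.2 FPKM. This was the largest change of the 10 genes in that table, −1.02 (SE 0.065, limma adjusted p = 0.000437), and the 169th largest of 11890 genes tested. With MITD1 knockdown the libraries measured 24.5, 25.03 and 24.7 FPKM, and their controls had 17.4, 16.9 and 17.4 FPKM. The rise was 0.50 (SE 0.032, limma adjusted p = 2.93e-06), or 43.8%.

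SEL1L, the adaptor of the ubiquitin ligase SYVN1 (HRD1), was the 1 gene of the 10 that rose with RBCK1 knockdown, joined by PDIA4 under quantile normalization, length correction, length and GC correction and voom. It measured 13.99, 14.4 and 14.2 FPKM in shcontrol and 18.4, 17.7 and 17.3 FPKM in shRBCK1. All shRBCK1 libraries were higher, by 0.31 (SE 0.036, limma adjusted p = 0.000441). With ANKRD35 knockdown the libraries measured 7.98, 9.81 and 8.61 FPKM, and their controls had 16.1, 16.2 and 15.3 FPKM. SEL1L was lower in all 3, with a change of −0.79 (SE 0.088, limma adjusted p = 0.00168), and it fell by 44.6%. Controls of the MITD1 comparison measured 17.9, 17.2 and 17.5 FPKM and siMITD1 libraries 18.7, 18.1 and 18.7 FPKM. The groups did not overlap, but the change of 0.07 did not pass (95% interval −0.0046 to 0.15, limma adjusted p = 0.0877). Its partner SYVN1 fell in shRBCK1, from 8.26 to 6.47 FPKM (−0.31, limma adjusted p = 0.00137), and in siANKRD35, from 4.79 to 2.28 FPKM (−0.83, limma adjusted p = 0.00173). In siMITD1 SYVN1 rose, from 7.09 to 9.92 FPKM (0.43, limma adjusted p = 5.27e-05). SEL1L is the longest of the 10 genes in the tables, at 9559 bases.

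XBP1, the transcription factor of the IRE1 branch, measured 74.1, 73.8 and 73.3 FPKM in shcontrol and 34.9, 37.6 and 37.3 FPKM in shRBCK1. The groups were far apart, with a change of −0.99 (SE 0.036, limma adjusted p = 9.38e-07), and XBP1 fell by 50.4%. Controls of the ANKRD35 comparison measured 66.9, 64.3 and 70.7 FPKM and siANKRD35 libraries 48.1, 50.7 and 49.0 FPKM. XBP1 was lower in all 3, with a change of −0.44 (SE 0.069, limma adjusted p = 0.00415), or −0.67 under quantile normalization. The siMITD1 libraries measured 76.9, 79.4 and 77.5 FPKM and their controls 70.1, 71.0 and 70.7 FPKM. The rise of 0.14 (SE 0.025, limma adjusted p = 0.00125) was called but small, 10.4%. Values for the sensor genes were read beside it, chosen after they were seen. ERN1, which encodes the kinase that splices XBP1 mRNA, measured 1.23 ± 0.115 and 0.891 ± 0.0607 FPKM in the RBCK1 table, where it passed the filter only through its controls and no test is given. It measured 1.98 ± 0.122 and 1.07 ± 0.118 in the ANKRD35 table (limma adjusted p = 0.00527) and 0.961 ± 0.198 and 1.15 ± 0.109 in the MITD1 table (limma adjusted p = 0.221). ATF6 differed past the threshold in the MITD1 table only, from 7.97 to 9.07 FPKM (limma adjusted p = 0.0147), and whether that differs from the other tables was not tested. EIF2AK3 fell from 4.42 to 3.51 FPKM in siANKRD35 (limma adjusted p = 0.0409) and rose from 6.41 to 7.54 FPKM in siMITD1 (limma adjusted p = 0.0135).

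In the siANKRD35 group replicate 2 stood apart, so each change was also computed without it. The 7 genes that fell still did, with log2 changes of −0.44 for HSP90B1, −0.46 for XBP1, −0.56 for HSPA5, −0.83 for HYOU1, −0.86 for SEL1L, −0.96 for DNAJB9 and −1.04 for HERPUD1. CALR and SDF2L1 became called as higher, which makes 2 higher instead of 0. Over all genes 3485 rose and 3033 fell of 11732 without replicate 2. In the same comparison the change of a gene ran with its length across 11885 genes (Spearman's rho −0.41, genes not being independent replicates), against 0.03 for RBCK1 and 0.09 for MITD1. After each library was corrected for gene length and GC content, 8 of the 10 genes were lower and 0 higher, PDIA4 being added, and the log2 changes were −0.42 for HSP90B1, −0.60 for HSPA5, −0.66 for SEL1L, −0.67 for XBP1, −0.78 for HYOU1, −1.02 for HERPUD1 and −1.05 for DNAJB9. CALR stood at 0.08 and SDF2L1 at 0.13 after that correction. Over all genes 2518 rose and 2522 fell of 11885 with it.

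The balance between the chaperones shifted within libraries, and a ratio of 2 genes in 1 library is free of scaling between libraries. HSPA5 to HSP90B1 FPKM ratios were 2.19, 2.11 and 2.09 in shcontrol and 0.945, 0.965 and 0.994 in shRBCK1. HSPA5 thus went from above HSP90B1 to about level with it. The ratio was 2.05, 2.10 and 2.05 against 1.93, 1.82 and 1.86 for ANKRD35, and 1.504, 1.51 and 1.51 against 2.06, 1.97 and 1.94 for MITD1. It was lower in all knockdown libraries of the first 2 tables and higher in all of the third. The CALR to HSP90B1 ratio fell from 2.43 ± 0.153 to 1.88 ± 0.0863 for RBCK1 and was 1.03 ± 0.0176 and 1.59 ± 0.377 for ANKRD35 and 2.06 ± 0.0411 and 2.47 ± 0.0413 for MITD1. Groups of 3 against 3 cannot reach an exact two-sided permutation p below 0.1, so these ratios are descriptions. The 10 genes together summed to 1295 ± 16.5 and 918 ± 10.3 FPKM for RBCK1, 2316 ± 19.1 and 1961 ± 24.7 for ANKRD35, and 1400.2 ± 4.10 and 1760 ± 8.14 for MITD1. HSPA5 made up 29.1% of that sum in shcontrol and 17.96% in shRBCK1, 38.3% and 32.4% in the ANKRD35 table, and 23.4% and 28.0% in the MITD1 table.

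**Figure D4:**
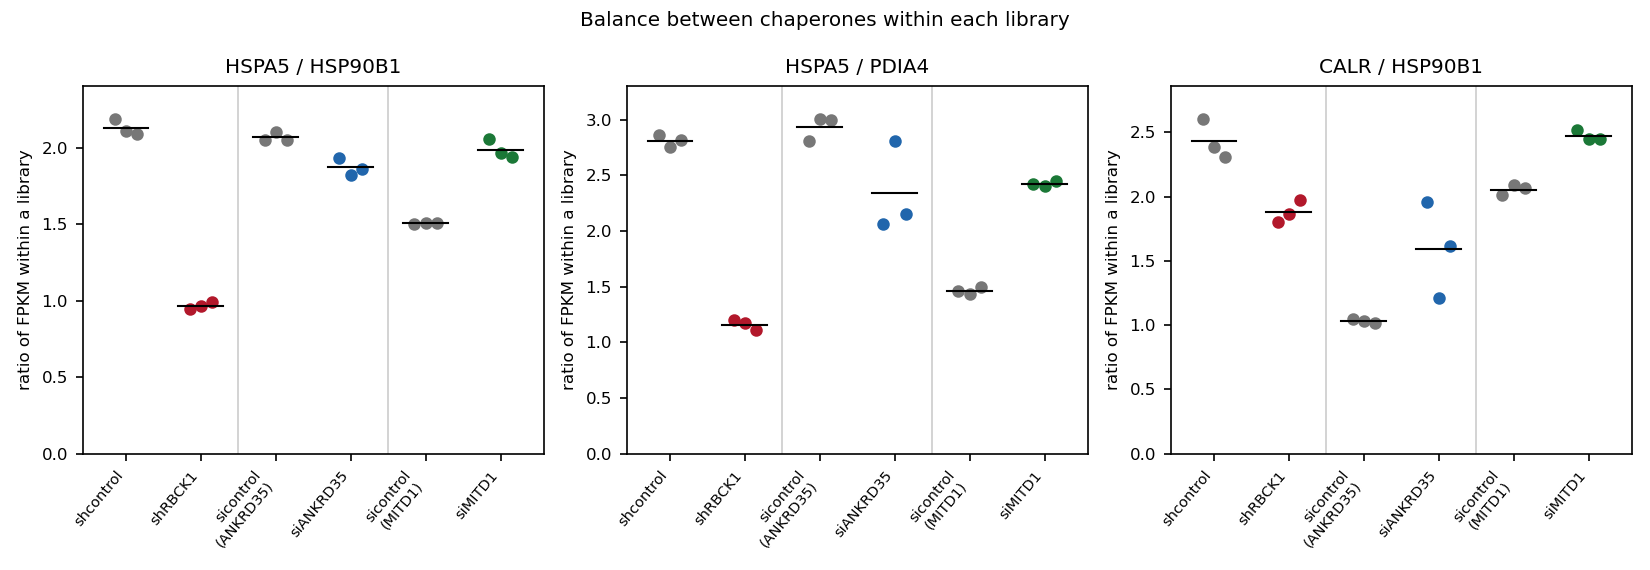
Ratios of FPKM between chaperones within each library, 1 panel per ratio with its axis from 0; points are libraries, horizontal bars group means, and vertical lines separate the 3 tables. The HSPA5 to HSP90B1 and HSPA5 to PDIA4 ratios are lower in shRBCK1 and higher in siMITD1 than in their controls, and the siANKRD35 libraries spread in the 2 right panels.

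Motif content and calls were set side by side. Of all genes tested, 24.9% fell and 24.1% rose in shRBCK1, 16.9% fell and 19.4% rose in siANKRD35, and 30% rose and 35.6% fell in siMITD1. Of the 7 genes with ERSE or ERSE-II, 6 fell in shRBCK1, 5 fell in siANKRD35 and 6 rose in siMITD1, where SDF2L1 fell. Of PDIA4, DNAJB9 and SEL1L, which lacked both, 1 fell and 1 rose in shRBCK1, 2 fell in siANKRD35, and 0 rose and 1 fell in siMITD1. The printed elements of HSPA5, HYOU1, HERPUD1 and XBP1 belong to genes that fell in shRBCK1 and siANKRD35 and rose in siMITD1. HSP90B1 and CALR, which also carry ERSE, were not called in shRBCK1 and siANKRD35 respectively. SDF2L1 fell with the others in shRBCK1, was not called in siANKRD35 and fell in siMITD1. With 7 and 3 genes chosen together, no difference between these sets was tested.

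Other genes of the pathway were counted in 6 lists that leave out the 10 genes. Over all genes tested, 24.1% rose and 24.9% fell in shRBCK1, 19.4% and 16.9% in siANKRD35, and 30% and 35.6% in siMITD1. For siANKRD35 all calls were 3485 and 3033 of 11732 genes without replicate 2, and 2518 and 2522 of 11885 after length and GC correction. List counts near these shares say little about a list, and no list was tested against them. Among 25 further endoplasmic reticulum chaperones and foldases, 5 rose and 8 fell in shRBCK1 (median −0.02), 3 and 4 in siANKRD35 (−0.04), and 15 rose and 3 fell of 24 tested in siMITD1 (0.25). The oxidoreductase gene ERO1A, which recharges disulfide isomerases, rose from 21.1 to 38.1 FPKM in siMITD1 (0.82, limma adjusted p = 1.62e-07). The collagen chaperone gene SERPINH1 fell there from 167 to 72.0 FPKM (−1.20, limma adjusted p = 4.57e-08), and CANX, the membrane-bound relative of CALR, from 173 to 124 FPKM (−0.48, limma adjusted p = 6.85e-07). CANX thus moved opposite to CALR in the same libraries. In shRBCK1 the HSPA5 partner gene DNAJB11 fell from 15.7 to 12.2 FPKM (−0.34, limma adjusted p = 0.000185) and the thioredoxin-domain gene TXNDC11 from 14.8 to 9.74 FPKM (−0.56, limma adjusted p = 5.63e-05). TXNDC11 also fell in siANKRD35, from 12.2 to 8.71 FPKM (−0.44, limma adjusted p = 0.00496). Without siANKRD35 replicate 2 the chaperone list there counted 7 higher and 8 lower, and after length and GC correction 3 and 7.

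Of 19 tested genes for degradation of endoplasmic reticulum proteins, 4 rose and 9 fell in shRBCK1 (median −0.11), 2 and 3 in siANKRD35 (−0.13), and 9 and 4 in siMITD1 (0.06). Without siANKRD35 replicate 2 the middle counts were 4 and 5 (−0.11), and after length and GC correction 2 and 4 (−0.07). SELENOS, a selenoprotein that links the degradation complex to the ATPase VCP, fell in shRBCK1 from 23.7 to 12.99 FPKM (−0.82, limma adjusted p = 6.63e-06). The mannosidase-like gene EDEM3 rose there from 6.87 to 9.64 FPKM (0.43, limma adjusted p = 0.000374). The list was thus mixed in each comparison. Of 23 genes for entry into the endoplasmic reticulum and early secretion, 4 rose and 8 fell in shRBCK1 (−0.04), 9 and 2 in siANKRD35 (0.30), and 12 and 6 in siMITD1 (0.10). The siANKRD35 counts were 11 and 3 (0.19) without replicate 2 and 7 and 4 (0.09) after length and GC correction. The translocon channel gene SEC61A1 rose in siMITD1 from 92.8 to 136 FPKM (0.55, limma adjusted p = 4.26e-07), whereas the translocon-associated gene SSR1 fell from 21.3 to 13.6 FPKM (−0.61, limma adjusted p = 2.92e-06). Of 10 stress sensor and protease genes tested in each comparison, 3 rose and 3 fell in shRBCK1 (0.10), 0 and 4 in siANKRD35 (−0.18), and 6 and 2 in siMITD1 (0.19). The 10 were not the same throughout: ATF6B was tested in shRBCK1 and siANKRD35 only, and CREB3L1 in siMITD1 only. The 3 counted as lower in shRBCK1 were CREB3, TMBIM6 and ERN1. ERN1 passed the filter there only through its controls, so its place in that count carries no weight. Without siANKRD35 replicate 2 the siANKRD35 counts were 0 and 6. The membrane-bound transcription factor gene CREB3L2 fell from 9.25 to 4.49 FPKM in siANKRD35 (−0.90, limma adjusted p = 0.00113). WFS1, a membrane protein gene whose loss causes Wolfram syndrome, fell from 25.2 to 9.96 FPKM in siMITD1 (−1.26, limma adjusted p = 8.6e-08) and rose from 14.3 to 19.1 FPKM in shRBCK1 (0.39, limma adjusted p = 0.000667).

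The PERK branch list had the largest medians among the 6 lists for RBCK1 and MITD1. In shRBCK1 9 of its 11 tested genes fell and 2 rose (median −0.91), and in siMITD1 11 of 11 rose (0.99). In siANKRD35 1 rose and 2 fell (−0.07), or 3 and 4 without siANKRD35 replicate 2 and 2 and 4 after length and GC correction. ATF3, a stress-induced transcription factor gene, fell from 28.4 ± 0.324 to 1.82 ± 0.271 FPKM in shRBCK1 (−3.39, limma adjusted p = 3.53e-08) and from 252 ± 2.24 to 70.4 ± 6.19 FPKM in siANKRD35 (−1.83, limma adjusted p = 0.000134). PPP1R15A, which encodes the GADD34 subunit that reverses eIF2 alpha phosphorylation, fell from 136 to 25.5 FPKM in shRBCK1 (−2.37, limma adjusted p = 7.61e-09) and rose from 10.1 to 32.8 FPKM in siMITD1 (1.60, limma adjusted p = 5.54e-08). TRIB3, a pseudokinase gene induced by ATF4, rose from 48.5 to 147 FPKM in siMITD1 (1.58, limma adjusted p = 7.07e-09). The genes that went up in shRBCK1 were DDIT4, an inhibitor of mTORC1 (0.45, limma adjusted p = 0.0011), and the lipoprotein receptor gene VLDLR (0.19, limma adjusted p = 0.00686). Genes of this list, whichever way they moved, can also respond to signals other than PERK, and the signal was not tested. DDIT4 rose in siANKRD35 too, from 65.6 ± 7.23 to 147 ± 46.2 FPKM (124%, limma adjusted p = 0.0124). In the RBCK1 and MITD1 comparisons the changes of the 10 genes themselves lay between −1.19 and 0.59.

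Chaperones outside the endoplasmic reticulum were counted as a further list. Of 14 cytosolic and mitochondrial chaperone genes, 7 rose and 1 fell in shRBCK1 (median 0.10), 10 rose and 0 fell in siANKRD35 (0.37), and 5 rose and 7 fell in siMITD1 (−0.08). Of all genes tested, 24.1% rose and 24.9% fell in shRBCK1, 19.4% and 16.9% in siANKRD35, and 30% and 35.6% in siMITD1. The siANKRD35 counts were 11 and 2 (0.31) without replicate 2 and 10 and 0 (0.32) after length and GC correction. HSP90AA1, the inducible cytosolic HSP90, rose from 437 to 556 FPKM in shRBCK1 (0.35, limma adjusted p = 0.000212), where its luminal relative HSP90B1 measured 177 and 171 FPKM. HSPE1, the co-chaperonin of mitochondria, rose from 30.2 to 57.6 FPKM in siANKRD35 (0.91, limma adjusted p = 0.00206). In siMITD1 HSPH1, a cytosolic relative of HYOU1, fell from 28.3 to 20.0 FPKM (−0.48, limma adjusted p = 7.52e-06). No test compared these lists with the 10 genes.

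**Figure D5:**
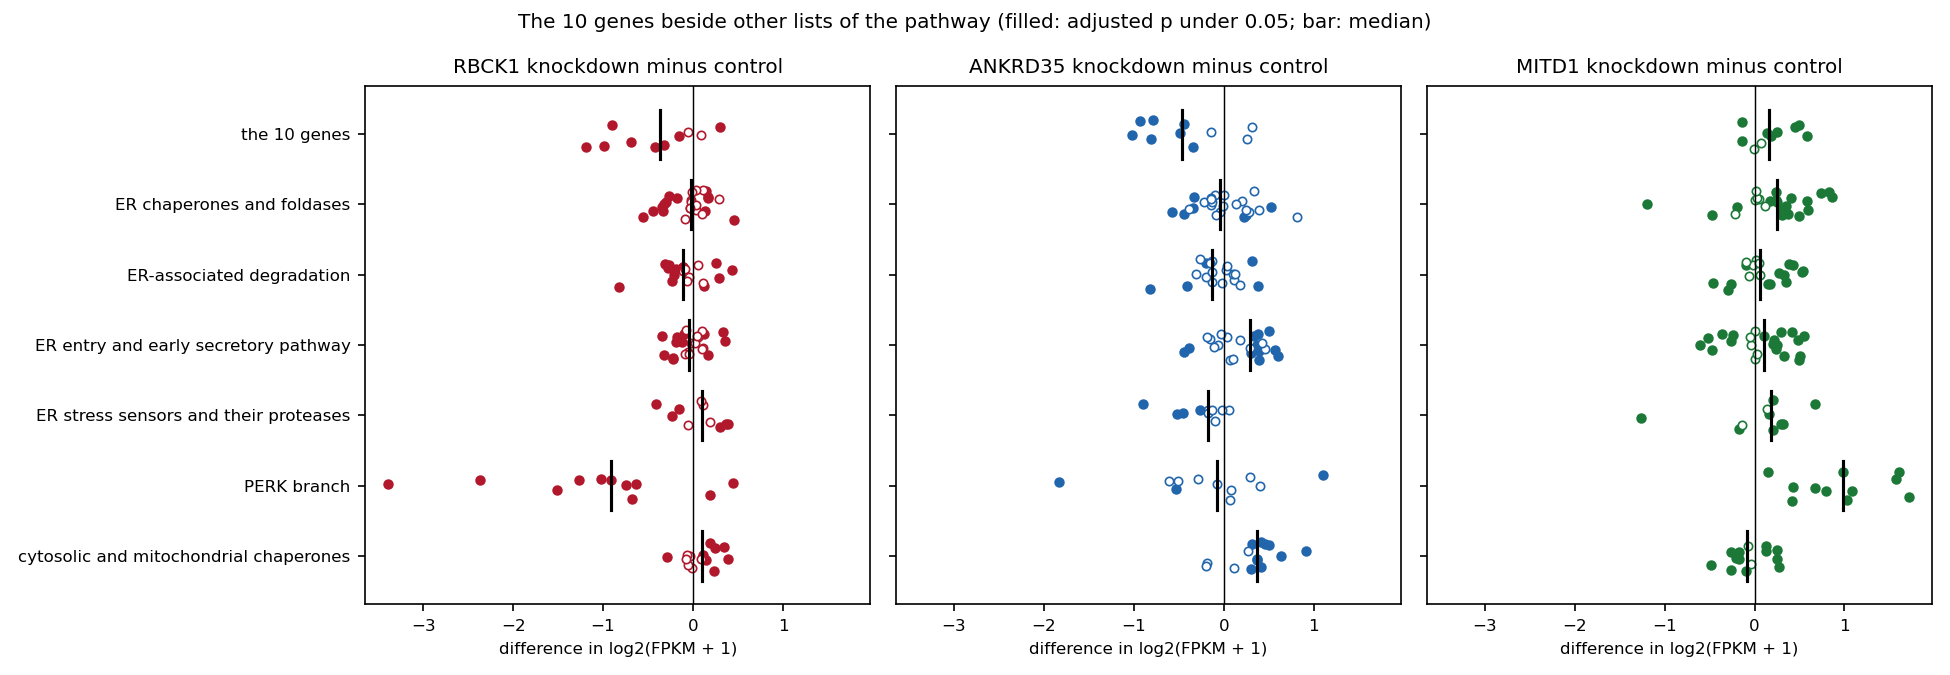
Change of each gene, knockdown minus control, in log2(FPKM + 1) for the 10 genes and 6 further lists, 1 panel per comparison; points are genes, filled where the adjusted p is under 0.05, and vertical bars mark list medians. The PERK branch median lies at −0.91 in the RBCK1 panel and at 0.99 in the MITD1 panel, and the 10 genes have medians of −0.37, −0.46 and 0.16.

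Likeness to HSPA5 was measured over the 18 libraries with log2(FPKM + 1) centred on the mean of each table, for 9262 genes tested in all 3 tables. The points share their table, group and library, so Pearson's r mainly follows the 3 group differences and is given as a description. The nearest genes outside the 10 were EIF1, a translation initiation factor gene (0.98), the guanylate-binding protein gene GBP3 (0.98), ZSWIM6 (0.98), the kinase gene NUAK2 (0.98) and the survival gene MCL1 (0.97). EIF1 changed by −0.52, −0.18 and 0.34 in the RBCK1, ANKRD35 and MITD1 comparisons, and NUAK2 by −1.33, −0.50 and 0.44. Of the 10 genes XBP1 was nearest to HSPA5, at 0.95 and rank 32, followed by HERPUD1 at 0.90 and rank 112 and DNAJB9 at 0.78 and rank 417. CALR reached 0.61, HSP90B1 0.59 and HYOU1 0.51. SDF2L1 and SEL1L stood at 0.07 and PDIA4 at −0.35. HERPUD1 and DNAJB9 ran together at 0.89, and SDF2L1 ran against SEL1L at −0.71.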

How the data were processed

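RNA-seq of 18 libraries in 6 groups of 3, mapped by title, was analysed from 3 tables in which the authors deposited FPKM values, per the file headers. Per the labels' protocols the libraries were made with a directional kit from total RNA. Per the submitters' processing notes the build was mm10, a mouse build, whereas 58735 of 58735 rows of the RBCK1 and ANKRD35 tables equal GENCODE 29 on GRCh38, and 29848 of 29928 MITD1-table symbols matched. The aligner and counting tool are not given in the sources used here. A further 6 value columns of the ANKRD35 table name no sample and were not used.

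FPKM times gene length gave whole reads, within 0.01 reads, for 100% of genes above 0 in the RBCK1 and ANKRD35 tables. With the lengths of the RBCK1 table it did so for 91.6% in the MITD1 table. Depth is given as these reads, whose number limits the precision of low values. Each comparison was fitted with limma 3.58.1 in R 4.3.3 (trend, two-sided) on log2(FPKM + 1) of its 6 libraries, a scale that understates changes of low genes. A gene was tested where at least 3 libraries reached 1 FPKM, and it was called where the Benjamini-Hochberg adjusted p fell under 0.05, whatever its fold. The script was tested on simulated data. The 10 genes, the lists and the tests were chosen with earlier results of these data known. Named beside the 10 genes were the targets, up to 2 called genes per direction, list and comparison with the smallest adjusted p and groups that did not overlap (not all are printed), and the 5 genes most like HSPA5. Alternatives were other pseudocounts, filters and normalizations, length and GC correction (the latter added after seeing the data), voom on recovered reads, a replicate block and leaving out each library. Protein sequences were not used here.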

Additional observations from a re-analysis of the deposited data

Results flagged for a closer look

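Some of the 10 genes had every knockdown library above the controls in 1 comparison and below them in another. How many of all genes do so was not counted. Groups did not overlap for 59%, 52.2% and 70.4% of all genes tested in the RBCK1, ANKRD35 and MITD1 comparisons. Such opposite moves may therefore be common. The difference between comparisons was not tested, because the tables were normalized separately. Values below are the first comparison's log2 change minus the second's. RBCK1 minus MITD1 gave −1.77 for HSPA5, −1.40 for HERPUD1, −1.13 for XBP1, −0.88 for CALR and −0.40 for HYOU1. The same pair of comparisons gave 0.22 for PDIA4, the disulfide isomerase, which is opposite in sign to the others. ANKRD35 minus MITD1 gave −1.52 for HERPUD1, −1.19 for HYOU1, −1.07 for HSPA5, −0.86 for SEL1L, −0.58 for XBP1 and −0.53 for HSP90B1. RBCK1 minus ANKRD35 gave 1.09 for SEL1L, −0.68 for CALR and 0.23 for PDIA4. SEL1L was called in both of these comparisons. CALR was not called in siANKRD35, where its change was 0.05 with length correction and −0.10 under quantile normalization. PDIA4 was called in neither shRBCK1 nor siANKRD35 in the main analysis.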

How the results depend on the processing

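The number of the 10 genes that fell in RBCK1 was 7, or 6 with no filter, 5 under quantile normalization and 8 with length and GC correction. Over all genes 3049 of 12227 fell, and in those settings, in the same order, 2733 of 31694, 2649 of 12227 and 3243 of 12222. In ANKRD35 it was 7, or 6 with no filter and 8 under quantile normalization, length correction, length and GC correction and voom. Over all genes 2007 of 11890 fell, and 1523 of 27910 with no filter. The other settings gave 2036, 1707 and 2724 of 11890 under quantile normalization, length correction and voom, and 2522 of 11885 with length and GC correction. The number that rose in MITD1 was 6, or 7 under quantile normalization and median-ratio scaling and 5 with voom, which left out HYOU1. Over all genes 3124 of 10415 rose, and in those settings, in the same order, 3412 and 3417 of 10415 and 2966 of 9549. In RBCK1 2 genes rose instead of 1 under quantile normalization, length correction, length and GC correction and voom. Over all genes 2951 of 12227 rose, and in those settings, in the same order, 3501 of 12227, 2962 of 12227, 2963 of 12222 and 4191 of 12227. In MITD1 1 fell instead of 2 with no filter and under quantile normalization, median-ratio scaling, length correction, length and GC correction and voom, SDF2L1 being the gene lost. Over all genes 3711 of 10415 fell, and 3716 of 18083 with no filter. The other settings, in the same order, gave 3399 and 3432 of 10415, 3418 and 3400 of 10398, and 3542 of 9549. Leaving out 1 library at a time gave 1 to 2 higher and 6 to 7 lower for RBCK1, 0 to 2 and 6 to 7 for ANKRD35, and 6 to 6 and 1 to 2 for MITD1. Over all genes it gave 2382 to 2610 higher and 2406 to 2835 lower of 11904 to 11974 for RBCK1. For ANKRD35 it gave 1158 to 3485 and 999 to 3033 of 11603 to 11732, and for MITD1 2788 to 2906 and 3337 to 3521 of 10238 to 10268. Signs turned for HSP90B1 in RBCK1 (0.0883 under quantile normalization, 0.0054 with voom) and CALR in ANKRD35 (−0.103 under quantile normalization). SDF2L1 in MITD1 turned to 0.0279 with length and GC correction. DNAJB9 in MITD1 turned to 0.0248 under quantile normalization, 0.0226 under median-ratio scaling, 0.0605 with length correction, 0.0228 with length and GC correction, 0.0172 without sicontrol_for_siMITD1 replicate 1 and 0.0737 without siMITD1 replicate 3, and the values that left out 1 library ran from −0.057 to 0.0737. None of these turned values was called, and the causes were not tested. SEL1L in MITD1 was called higher under quantile normalization (0.11) and median-ratio scaling (0.10), HSP90B1 in RBCK1 lower with length and GC correction (−0.09), and PDIA4 in ANKRD35 lower under quantile normalization (−0.45), length correction (−0.30) and voom (−0.23). Calls held but sizes moved by over 1.5 times for DNAJB9 in RBCK1 (−0.43 with pseudocount 5) and HYOU1 in RBCK1 (−0.096 with voom). The same was seen for SDF2L1 in RBCK1 (−0.20 without shRBCK1 replicate 1) and CALR in RBCK1 (−0.24 under quantile normalization). In ANKRD35 it was seen for HSPA5, HSP90B1 and XBP1 under quantile normalization (−0.74, −0.67 and −0.67). PDIA4 in MITD1 moved so in several settings, with −0.092 under quantile normalization and −0.062 with length and GC correction.

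Over all genes the ANKRD35 calls went from 2305 higher and 2007 lower to 3485 and 3033 without siANKRD35 replicate 2, to 1470 and 1344 without siANKRD35 replicate 3, and to between 1158 and 1211 higher and 999 and 1029 lower without 1 control library. Replicate numbers did not pair the libraries: same-numbered deviations correlated at −0.0068 to 0.028 (RBCK1), −0.087 to 0.18 (ANKRD35) and −0.00086 to 0.10 (MITD1), and not every library correlated best with its own number in any comparison. With the replicate block 1 gene rose and 7 fell in RBCK1, 0 and 7 in ANKRD35, and 6 and 2 in MITD1, and no call of the 10 genes changed. Over all genes it gave 2564 higher and 2783 lower of 12227, 2284 and 1855 of 11890, and 3119 and 3740 of 10415. SDF2L1 and DNAJB9 rest on the fewest reads, 222 to 383 per library for DNAJB9 in the RBCK1 and MITD1 tables, so their small changes are the least certain.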

Other observations

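Levels in the 3 control groups were not alike for the stress genes. The control group of the ANKRD35 table held HSPA5 at 887 FPKM, HERPUD1 at 57.4 FPKM and DNAJB9 at 35.8 FPKM. The shcontrol group held them at 377, 18.2 and 7.79 FPKM and the control group of the MITD1 table at 328, 17.2 and 8.14 FPKM. After ANKRD35 knockdown HSPA5 still measured 636 FPKM and DNAJB9 20.3 FPKM, above either of the other control groups. XBP1 and CALR did not share this order: XBP1 measured 73.7, 67.3 and 70.6 FPKM and CALR 431, 442 and 447 FPKM in the RBCK1, ANKRD35 and MITD1 controls. In the PERK branch DDIT3, which encodes CHOP, measured 21.0, 124 and 6.32 FPKM and ATF3 28.4, 252 and 2.82 FPKM in the same controls. DDIT3 was named here after its values were seen, and levels from separately normalized tables were not tested against each other.

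In the PERK branch ATF4 itself measured 215 ± 3.07 and 106 ± 2.78 FPKM in the RBCK1 table, 182 ± 1.81 and 224 ± 33.4 in the ANKRD35 table and 202 ± 4.29 and 273 ± 2.82 in the MITD1 table. It fell in shRBCK1 (limma adjusted p = 3.73e-07), rose in siMITD1 (limma adjusted p = 1.26e-06) and did not pass in siANKRD35 (limma adjusted p = 0.0829).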
